A study of Apostichopus japonicus with 9 samples.

Results

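The transcriptome of sea cucumber (*Apostichopus japonicus*) body wall (AJBW) after 3 h of incubation at 37 °C (T_3h) was compared with that after only 1 h of it (T_1h). The comparison rests on 3 T_3h libraries and 3 T_1h libraries, which are 6 of the 9 libraries of the study and were chosen by their labels. The other 3 libraries were made from fresh body wall that was not incubated (CON), and they served to place each change in the first hour or in the hours after it. The tissue of every group was excised: viscera and heads had been taken off, and the body wall was cut into large pieces before incubation and frozen in liquid nitrogen, so no living animal was heated. The animals were bought live and were of 1 weight range; the labels name no strain, sex or age, and do not state whether same-numbered libraries share an animal. The aim of the study was to follow the genes that act while the body wall turns tender at a temperature that favours its own enzymes, and T_3h vs. T_1h asks what still moved after the first hour.

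The body wall of a sea cucumber is an epidermis over a thick dermis of mutable collagenous tissue, whose stiffness is set by proteins that join collagen fibrils, with muscle, nerve and coelomocytes (the immune cells of the body cavity) within or beneath it. Heat in animals typically calls on chaperones first, which hold unfolded proteins, while the making of ribosomes, the turnover of RNA and the clearing of damaged proteins follow their own courses. In excised tissue the level of an mRNA is set by what is still transcribed and by what is degraded, and in bulk libraries fewer cells of a type and less RNA per cell cannot be told apart.

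Expression is given as FPKM, a fragment count scaled by transcript length and by library size, divided here by a factor for each library that brings the libraries to 1 scale. The factors were 0.862, 0.580 and 1.09 for T_3h_1 to T_3h_3, against 1.05, 1.01 and 1.06 for T_1h_1 to T_1h_3. T_3h_2 stood apart in the composition of its RNA: the undescribed gene MSTRG.29985 held 20.2% of its summed FPKM, against 6.41 to 8.64% in the other T_3h libraries, and 12877 genes reached 1 FPKM in it, against 17380 to 24915 in the other 8 libraries. The depth behind the genes is not given in the table, but recurring steps among low values put the depth of the libraries between 0.817 and 1.08 times that of T_1h_2. T_1h_1, which the study left out of its tests, was kept, and the calls that end without it are given beside the genes described. Genes of the dermis were plainly there (collagen, fibrillin and tenascin genes summed to between 15030 and 58804 scaled FPKM in the 6 libraries), markers of muscle summed to between 178 and 347, of coelomocytes to between 684 and 1106, and of nerve to between 11.2 and 28.6. Markers of ciliated epidermis summed to only 8.34 in T_1h_1, against 23.1 to 47.1 in the other 5 libraries.

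Of 18942 genes with a mean of at least 1 FPKM, 467 (2.47%) passed the thresholds of an unadjusted p of at most 0.05 and a log2 fold change of at least 1 in either direction. T_3h was higher for 184 (0.971%) and lower for 283 (1.49%). With Benjamini-Hochberg adjustment, 0 genes reached an adjusted p under 0.05 in limma. A Ballgown-type test, run on the T_1h and T_3h libraries without T_1h_1 and with no term for the replicate number, also gave 0. In limma 1590 genes (8.39%) had an unadjusted p under 0.05, so single genes below are described as past the thresholds and no more. In the same fit, 368 genes (1.94%; 1.36% higher, 0.581% lower) passed when T_1h was set against CON, where again 0 had an adjusted p under 0.05 and 6.44% an unadjusted one. For T_3h against CON, 1850 passed (9.77%; 4.22% higher, 5.55% lower), 1.98% of the tested genes had an adjusted p under 0.05 and 22.7% an unadjusted one. Of the 184 genes that rose, 142 did so in all 3 same-numbered pairs (14.3% of all tested genes were higher in all 3) and 58 (0.306%) had T_3h libraries that all lay above the T_1h libraries. Of the 283 that fell, 252 did so in all 3 pairs (19.8% of all tested genes were lower in all 3) and 134 (0.707%) had libraries that did not overlap. Over all tested genes, 2.05% lay apart with T_3h higher and 3.22% with T_3h lower. The genes that rose were also the more abundant ones, with a median mean level of 7.5 FPKM, against 4.69 FPKM for those that fell and 2.54 FPKM for all tested genes. With 1 added to each FPKM, a log2 fold change of 1 is hard to reach for genes near 1 FPKM. The contrast with all tested genes thus follows in part from the threshold.

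The 3 pairs did not move equally. Of all tested genes, 11.8% moved by at least 1 on the log2 scale between T_3h_1 and T_1h_1 and 12.7% between T_3h_2 and T_1h_2, but 5.20% between T_3h_3 and T_1h_3. The median of the 184 genes that rose was 1.55 in pair 1, 1.73 in pair 2 and 0.48 in pair 3, and that of the 283 genes that fell was -1.53, -1.36 and -0.80. Leaving out T_3h_3 gave 1272 genes past the thresholds and leaving out T_1h_3 gave 731, while leaving out T_1h_1 gave 410 of 18657 (2.2%), of which 150 rose (0.804%) and 260 fell (1.39%). Without T_1h_1, 4.49% of the tested genes had an unadjusted p under 0.05, a share no larger than this cut-off would give if no gene changed. In that fit 88 of the 184 rises and 159 of the 283 falls passed again. All its libraries are also in the main fit, so passing again, here and below, is no separate evidence. Without scaling, 733 genes passed and 8.87% of them rose, against 39.4% with it, since the median of all tested genes then stood at -0.24 on the log2 scale, against -0.03. With no term for the replicate number, 217 genes passed, and all of them were among the 467.

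**Figure D1:**
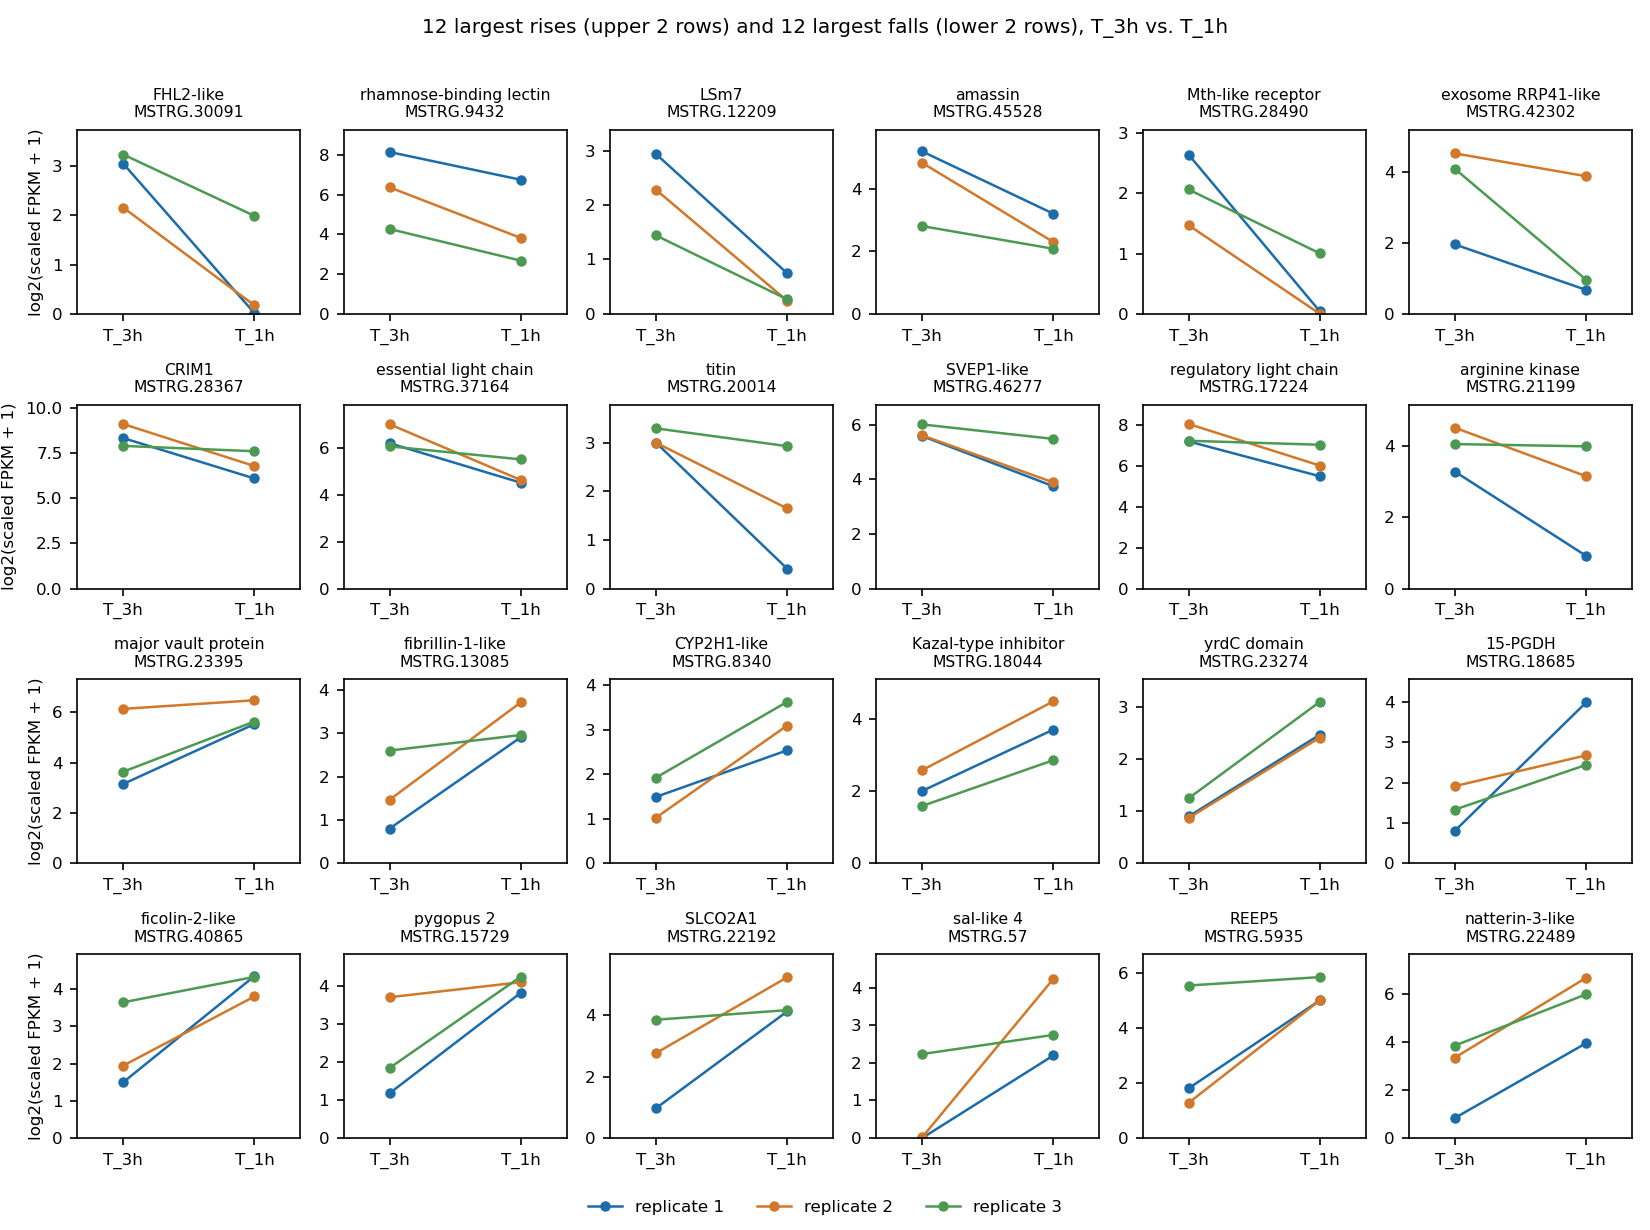
Levels of the 12 largest rises (upper 2 rows) and the 12 largest falls (lower 2 rows) among described genes past the thresholds that moved the same way in all 3 same-numbered pairs, as log2(scaled FPKM + 1), with T_3h left of T_1h and each line joining 2 libraries of 1 number. Pair 3 (green) has the flattest line in many panels, as in REEP5 with a difference of -0.31 against -3.20 and -3.73 in the other pairs, whereas natterin-3-like falls steeply in all 3.

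To find what changed only after the first hour, each of the 467 genes was placed by its fold change in T_1h vs. CON. For 240 of them (51.4%, or 1.27% of the tested genes) the first hour had moved the gene by less than 0.5 on the log2 scale; 87 of these rose (0.459%) and 153 fell (0.808%). Another 154 genes (60 higher, 94 lower) continued a move of at least 0.5 in the same direction, and 73 (37 higher, 36 lower) went against the first hour. Of all tested genes, 83.3% stayed within 0.5 in the first hour, so the share of such genes was lower among the 467 than among all genes. The steps share the T_1h libraries: an extreme T_1h value pushes both steps in opposite directions, and 21 of the 73 genes that went against the first hour were listed at 0 FPKM in at least 1 T_1h library. The difference between the steps was tested in limma. Its unadjusted p was at most 0.05 for 45 of the 240 genes, 5 of the 154 and 63 of the 73. Over all tested genes, 2.16% had one under 0.05. Past the thresholds of T_3h vs. CON were 202 of the 240, all 154, and 1 of the 73. The classes were cut by the same fold changes that make up these comparisons. The order of both sets of counts was thus largely fixed in advance and is no separate result. Among the 240, 135 passed again without T_1h_1, and for 112 the first hour also stayed within 0.5. The count of 240 was 729 without T_3h_3, 396 without T_1h_3 and 151 without CON_3.

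**Figure D2:**
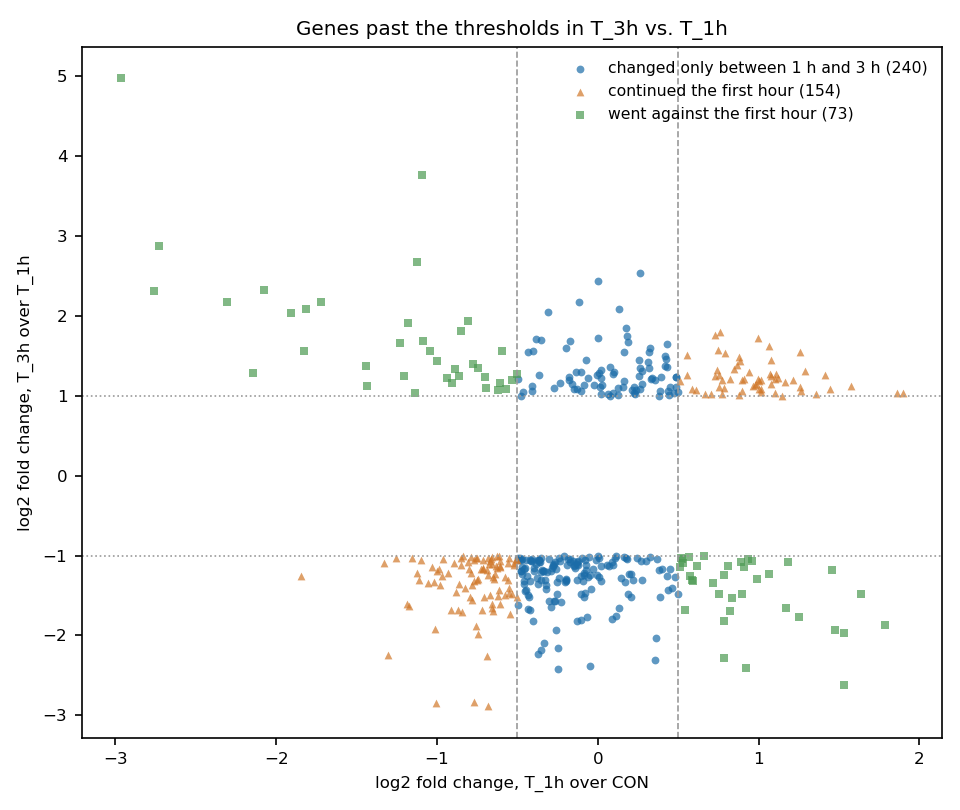
Each point is 1 of the 467 genes past the thresholds in T_3h vs. T_1h, with its log2 fold change of T_1h over CON on the horizontal axis and that of T_3h over T_1h on the vertical axis. The dashed lines at 0.5 either side of 0 bound the 240 genes (circles) whose first hour was small, triangles mark the 154 genes that continued, and squares mark the 73 that went against the first hour, up to MSTRG.6974 at -2.96 and 4.97.

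Genes of contraction were among the rises. The largest rise among described genes that moved in every pair was an FHL2-like gene (MSTRG.30091), a LIM domain protein that in vertebrates is a cofactor and scaffold of heart muscle and stressed cells. It had 7.31, 3.47 and 8.44 scaled FPKM in the T_3h libraries, against 0.00888, 0.126 and 2.97 in the T_1h libraries. All T_3h libraries lay above all T_1h libraries, and the log2 fold change was 2.09 ± 0.33 (SE) with an unadjusted p = 0.000291 in limma and an adjusted p = 0.34. In CON it had 0.0308, 0.0462 and 2.19 scaled FPKM, with a first hour of 0.13, and the rise remained at 1.81 without T_1h_1.

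Of the 26 tested muscle contractile genes, 6 rose (23.1%, against 0.971% of all tested genes) and none fell. Their median was 0.33 in the fit, 0.48 and 0.53 in pairs 1 and 2, and -0.001 in pair 3, against -0.03 over all tested genes, and it stayed above 0 without scaling (0.08). The essential light chain of myosin (MSTRG.37164), which supports the lever arm of the motor, had 73.9, 130 and 67.2 scaled FPKM in T_3h, against 22.2, 24.1 and 45.4 in T_1h and 15.5, 8.0 and 12.2 in CON. The log2 fold change was 1.55 ± 0.41 (SE, unadjusted p = 0.00595 in limma), and the libraries of both groups did not overlap. Other entries of that description, MSTRG.4731 and MSTRG.34412, stood at 0.12 and 0.03. The regulatory light chain 12A (MSTRG.17224), whose phosphorylation switches on non-muscle and smooth muscle myosin, had 148, 268 and 151 scaled FPKM in T_3h, against 44.5, 64.4 and 132 in T_1h. Titin (MSTRG.20014), the spring of the sarcomere, had 7.01, 7.00 and 8.81 scaled FPKM in T_3h, against 0.328, 2.13 and 6.61 in T_1h. Both rose in all pairs, by 1.31 and 1.44 on the log2 scale, yet mainly through pairs 1 and 2, with pair differences of 0.20 and 0.37 in pair 3. The regulatory light chain 12B (MSTRG.39721) differed by -0.72 (unadjusted p = 0.0602 in limma).

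Actin isoform 2, in 2 entries of the same description that may share reads, passed as well: MSTRG.23700 had 84.9, 206 and 72.1 scaled FPKM in T_3h, against 26.2, 41.9 and 78.3 in T_1h, with the third pair on the other side of 0. Gelsolin-like protein 2 (MSTRG.31004), a filament-severing protein, rose by 1.26 on the log2 scale. All 6 contractile genes past the thresholds had also moved up by 0.75 to 1.29 in the first hour, so they continued and were not new in the second step. Arginine kinase (MSTRG.21199), which is not on the list and buffers ATP in invertebrate muscle, had 8.70, 21.7 and 15.6 scaled FPKM in T_3h, against 0.887, 7.87 and 14.8 in T_1h and 1.21, 0.629 and 2.89 in CON. It rose by 1.26 after 1.41 in the first hour. Without T_1h_1 the essential light chain MSTRG.37164 and gelsolin-like protein 2 still passed. Titin (0.99, unadjusted p = 0.128), both actin entries (0.88 and 0.89), the regulatory light chain 12A (1.02, unadjusted p = 0.0651) and arginine kinase (0.57, unadjusted p = 0.238 in limma) did not. Another titin entry (MSTRG.46763) differed by -0.92 (unadjusted p = 0.024 in limma) and did not reach the fold threshold. Summed muscle markers (24 in the table, none at 0 in all 6 libraries) were 244, 347 and 233 scaled FPKM in T_3h, against 178, 248 and 287 in T_1h, and their part in these rises was not tested.

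Some signalling and matrix proteins rose beside them. The cysteine-rich motor neuron 1 gene (CRIM1, MSTRG.28367), a membrane protein that in vertebrates binds bone morphogenetic proteins, had 325, 558 and 240 scaled FPKM in T_3h, against 67.9, 110 and 195 in T_1h and 52.4, 47.9 and 61.9 in CON. It was the most abundant of the 12 largest described rises, its groups did not overlap, and it rose by 1.62 ± 0.43 on the log2 scale (unadjusted p = 0.00596 in limma). A gene like SVEP1 (MSTRG.46277), a large extracellular protein of sushi, EGF and pentraxin domains, had 47.2, 48.1 and 63.9 scaled FPKM in T_3h, against 12.5, 13.8 and 43.9 in T_1h. It rose by 1.37 and had moved by only 0.43 in the first hour. An Mth-like G-protein coupled receptor (MSTRG.28490; Methuselah bears on stress resistance in *Drosophila*) had 5.26, 1.78 and 3.19 scaled FPKM in T_3h, against 0.0288, 0 and 1.01 in T_1h. Secreted frizzled-related protein 5 (MSTRG.12481), an antagonist of Wnt ligands, rose by 1.29 through pairs 1 and 2 and no longer passed without T_1h_1 (0.82, unadjusted p = 0.149).

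Ribosomal protein genes lay above 0 together, but mostly below the fold threshold. All 83 tested genes of cytosolic ribosomal proteins had a fold change above 0, with a median of 0.45 on the log2 scale, and the median was still above 0 without T_1h_1 (0.30), with upper-quartile scaling (0.47) and without scaling (0.11). Only 1 of them passed the thresholds, an entry of the large-subunit protein L35 (MSTRG.24748). Another 4 had an unadjusted p of at most 0.05 with a smaller fold, among them the L35 entries MSTRG.23953 and MSTRG.24984. The more abundant L35 entry MSTRG.38968 stood at 0.39 (unadjusted p = 0.238 in limma), and entries of the same description may share reads. MSTRG.24748 had 101, 192 and 41.3 scaled FPKM in T_3h, against 25.0, 25.7 and 42.0 in T_1h, and 22.3, 61.3 and 29.8 in CON. The third pair did not share the shift: 81 of the 83 genes were higher in T_3h_1 than in T_1h_1 and all 83 in T_3h_2 than in T_1h_2, but 13 in T_3h_3 than in T_1h_3, where the median was -0.21. The paper lists a larger share of multimapped reads for T_3h_1 and T_3h_2 than for any other library. Whether this bears on the shift was not tested. Summed over the family, the level was 68230, 99852 and 39085 scaled FPKM in T_3h, against 44430, 49720 and 44354 in T_1h. FPKM is a share of the library, so this sum moves against that of other abundant genes. The first hour had moved the family by a median of 0.11. Among the 64 tested genes of mitochondrial ribosomal proteins the median was 0.16 and was above 0 in all 3 pairs, but it was -0.03 without scaling, and none passed.

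**Figure D3:**
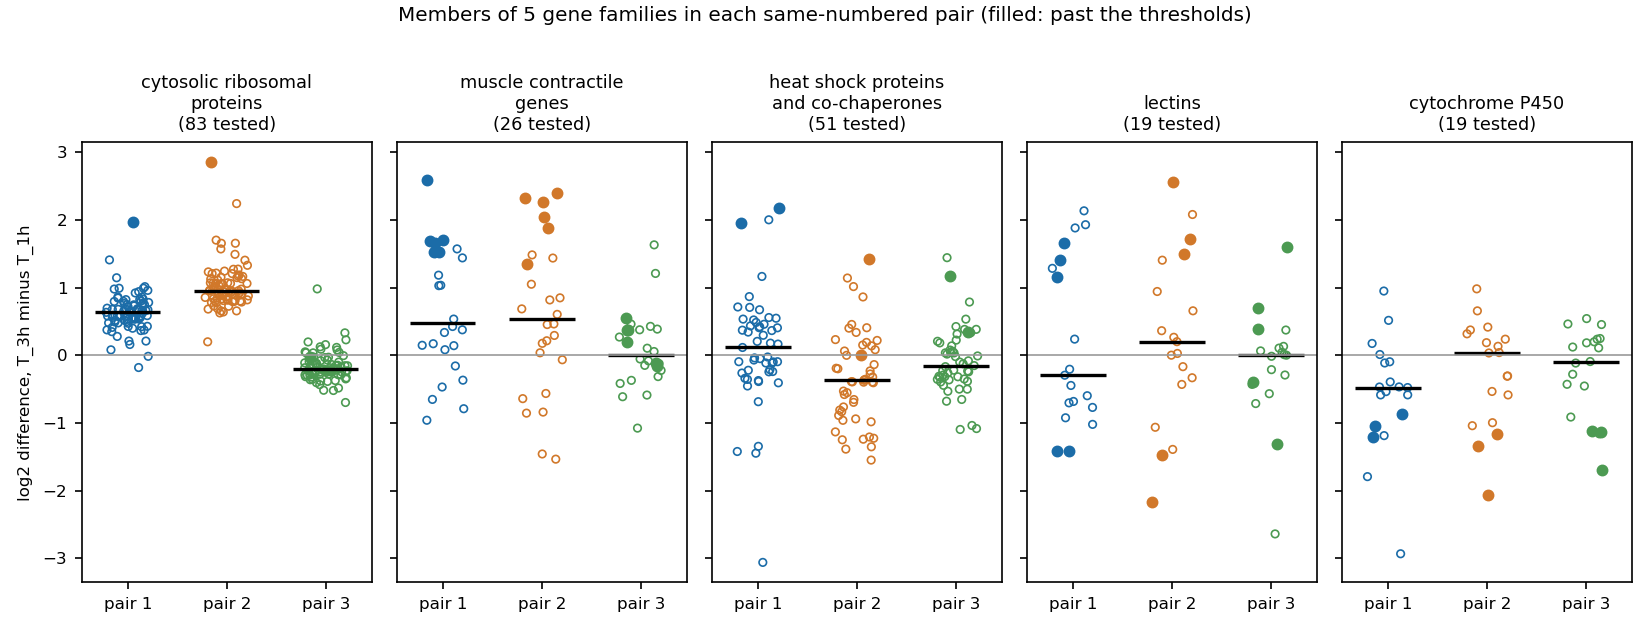
Log2 difference of T_3h minus T_1h for every tested member of 5 families in each same-numbered pair, with black bars at the medians and filled points for members past the thresholds in the fit. Cytosolic ribosomal proteins lie above 0 in pairs 1 and 2 (medians 0.63 and 0.95) and mostly below it in pair 3 (-0.21); without scaling the median of the fit is 0.11 in place of 0.45.

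Genes that process RNA gave a few rises against the first hour. LSm7 (MSTRG.12209), a subunit of the ring that binds U6 snRNA and decaying mRNA, had 6.69, 3.87 and 1.72 scaled FPKM in T_3h, against 0.679, 0.181 and 0.203 in T_1h and 3.29, 0.179 and 1.75 in CON. Its groups did not overlap, and it rose by 1.81 ± 0.38 (SE, unadjusted p = 0.00161 in limma) after a move of -0.85 in the first hour. The RRP41-like subunit of the RNA exosome (MSTRG.42302), which degrades RNA from its end, had 2.88, 22 and 16.0 scaled FPKM in T_3h, against 0.595, 13.7 and 0.946 in T_1h and 0.944, 11.6 and 16.8 in CON. It passed at 1.68, but T_1h_2 lay above T_3h_1, so the groups overlapped. Both genes are on the RNA degradation list, of whose 34 tested genes they were the only ones past the thresholds (5.88%, against 2.47% of all tested genes).

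Chaperones, the usual mark of heat, mostly stayed below the thresholds between 1 h and 3 h. Of 51 tested heat shock proteins and co-chaperones, 2 rose (against 0.971% of all tested genes), none fell (against 1.49%), and the median was -0.17, with 17 above 0 and 34 below it. Alpha-crystallin B (MSTRG.30013), a small heat shock protein that holds unfolded proteins and binds desmin and titin in vertebrate muscle, had 26.4, 60.8 and 30.2 scaled FPKM in T_3h, against 6.05, 22.1 and 23.6 in T_1h and 21.8, 20.4 and 11 in CON. Its groups did not overlap, and it rose by 1.24 ± 0.47 (SE, unadjusted p = 0.0304 in limma). A BAG2-like co-chaperone (MSTRG.27169), of the family that releases clients from HSP70, rose by 1.12 through pairs 1 and 3, with equal levels in pair 2. Neither had moved by 0.5 in the first hour, and neither passed without T_1h_1, where alpha-crystallin B stood at 0.68 and the BAG gene at 0.54.

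An HSP70 gene and an HSP90-alpha gene lay on the other side of 0, as did 34 of the 51 tested genes, and neither passed the thresholds. HSP70 (MSTRG.35371), which refolds proteins after heat, had 9.01, 0.663 and 4.01 scaled FPKM in T_3h, against 82.6, 0.911 and 9.72 in T_1h. Each pair was lower in T_3h, but the spread was wide and the gene did not pass (-1.45, unadjusted p = 0.119 in limma). HSP90-alpha (MSTRG.12166) had 97.1, 45.8 and 172 scaled FPKM in T_3h, against 126, 107 and 355 in T_1h, and at -0.87 (unadjusted p = 0.0320) it missed the fold threshold. Heat shock cognate 70 (MSTRG.20083), the constitutive form, had 97.2, 48.8 and 194 scaled FPKM in T_3h, against 60.7, 117 and 254 in T_1h, with pairs of both signs. Of 88 tested genes of protein processing in the endoplasmic reticulum 1 rose, the same alpha-crystallin B, and of 41 proteasome genes none passed, with a median of -0.05.

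Immune recognition changed gene by gene. Amassin (MSTRG.45528), an olfactomedin protein that clots coelomocytes in sea urchins, had 35.7, 27.4 and 6.0 scaled FPKM in T_3h, against 8.21, 3.91 and 3.23 in T_1h and 7.08, 4.24 and 2.09 in CON. It rose in all 3 pairs, by 1.75 ± 0.34 on the log2 scale (unadjusted p = 0.001 in limma), and by 1.69 without T_1h_1. An L-rhamnose-binding lectin (CSL3, MSTRG.9432), of a family that binds bacterial sugars in fish, had 285, 82.1 and 18.4 scaled FPKM in T_3h, against 107, 13.2 and 5.4 in T_1h and 66.6, 9.49 and 8.65 in CON. The level differed more between library numbers than between hours, so the groups overlapped, yet each pair rose (1.40, 2.55 and 1.6). Their first hour was 0.18 and 0.17, and the difference between the steps had unadjusted p-values of 0.0292 and 0.0364 in limma.

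Among 19 tested lectins, a list chosen after its values were seen, 3 rose and 2 fell, against 0.971% and 1.49% of all tested genes. Echinoidin (MSTRG.44495), a C-type lectin of coelomic fluid known from sea urchins, had 709, 530 and 72.6 scaled FPKM in T_3h, against 224, 187 and 55.3 in T_1h. A gene described as a low affinity immunoglobulin epsilon Fc receptor (MSTRG.7925), which is a C-type lectin by family, had 115, 100 and 16.5 scaled FPKM in T_3h, against 51.2, 29.9 and 9.83 in T_1h, after a first hour of 0.16. A lectin with the description of a newt lectin (LECA, MSTRG.11406) went the other way, with 62.2, 148 and 168 scaled FPKM in T_3h, against 168, 414 and 416 in T_1h. Its pairs were alike (-1.42, -1.48 and -1.31), and it fell by 1.40 ± 0.29 (SE, unadjusted p = 0.00167 in limma). Hepatic lectin-like (MSTRG.9393) had 40.2, 97.6 and 291 scaled FPKM in T_3h, against 109, 441 and 383 in T_1h. Its first hour of -0.42 was just within the cut of 0.5 for genes changed only in the second step.

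Fibrinogen-related proteins, a large family of pathogen-binding proteins in invertebrates, split as well: of 73 tested genes 2 rose and 4 fell (8.22%, against 2.47% of all tested genes), with a median of -0.26 and 54 of them below 0, as were 10108 of all 18942. The rises were amassin, which the list holds by its words, and ficolin-2-like MSTRG.821. Another ficolin-2-like gene (MSTRG.40865) had 1.82, 2.85 and 11.5 scaled FPKM in T_3h, against 19.4, 13 and 19.1 in T_1h and 20.2, 25.4 and 7.55 in CON. It fell by 1.8 ± 0.63 with no overlap, after a first hour of 0.09, but did not pass without T_1h_1 (-1.57, unadjusted p = 0.0837), and neither did MSTRG.821 (0.97). Fibrinogen-like protein 1 (MSTRG.25274) followed the number of the library more than the hour, with 1.14, 2.75 and 0.0344 scaled FPKM in T_3h, against 3.42, 17.4 and 0.0701 in T_1h, and just missed the threshold without T_1h_1 (-1.14, unadjusted p = 0.0506). Natterin-3-like (MSTRG.22489), named for a pore-forming fish toxin family, had the lowest unadjusted p of all named genes. It had 0.782, 9.13 and 13.3 scaled FPKM in T_3h, against 14.3, 99.9 and 61.7 in T_1h and 24.4, 250 and 122 in CON. It fell by 2.85 ± 0.32 in T_3h (unadjusted p = 2.74e-05 and adjusted p = 0.24 in limma), after a move of -1.01 in the first hour.

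Complement genes stayed below the thresholds in this step. None of 15 passed, and the median of 0.31 came from pair 1 (1.03, against -0.21 and 0.06 in pairs 2 and 3) and was -0.05 without T_1h_1. C3 (MSTRG.13921), the protein all complement routes cleave, differed by 0.64 (unadjusted p = 0.0957 in limma), and the factor B gene MSTRG.2823, which forms the C3 convertase, by 0.62 (unadjusted p = 0.215), where entries of the same name may share reads. Coelomocyte markers had a median of -0.31 over 53 tested genes of 109, with 3 that fell (5.66%, against 1.49% of all tested genes) and none that rose. Summed, they were 1106, 684 and 767 scaled FPKM in T_3h, against 721, 706 and 879 in T_1h. A scavenger receptor cysteine-rich protein (MSTRG.11194) was 1 of the 3, with 1.06, 2.70 and 3.60 scaled FPKM in T_3h, against 6.51, 5.26 and 6.10 in T_1h, and no overlap, though it missed the thresholds without T_1h_1 (-0.91, unadjusted p = 0.0589).

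Of the matrix itself, no collagen passed. The 23 tested genes with collagen in their description include 3 that are not collagens (a procollagen galactosyltransferase and 2 entries of collagen type IV alpha-3-binding protein, a ceramide carrier), and the only one with an unadjusted p of at most 0.05 in limma was 1 of these carriers (MSTRG.42215, -0.75). The median over the 23 was 0.06, -0.12 without T_1h_1 and -0.21 without scaling. The fibrillin-1-like gene (MSTRG.13085), a microfibril protein of the dermis, had 0.742, 1.76 and 5.08 scaled FPKM in T_3h, against 6.52, 12.2 and 6.80 in T_1h and 6.97, 19.6 and 7.85 in CON. All T_3h libraries were lower, it fell by 1.57 ± 0.43 (SE, unadjusted p = 0.00743 in limma), and it passed again without T_1h_1 (-1.38). Summed dermis markers were 18075, 58804 and 23951 scaled FPKM in T_3h, against 15030, 25833 and 23756 in T_1h, highest in the library in which MSTRG.29985 held its largest share.

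Matrix proteases and their inhibitors gave 1 rise and 1 fall in 18 tested genes of matrix metalloproteinases and tissue inhibitors (TIMP), where 0.971% of all tested genes rose and 1.49% fell. Tensilin (MSTRG.23071), a TIMP-related protein that stiffens the dermis of sea cucumbers, had 23.1, 33.8 and 13.9 scaled FPKM in T_3h, against 9.56, 7.43 and 10.4 in T_1h and 2.62, 3.24 and 9.04 in CON. Its groups did not overlap, and it rose by 1.21 ± 0.46 (unadjusted p = 0.0308 in limma) and passed without T_1h_1 (1.37), whereas the other tensilin entry (MSTRG.24897) stood at -0.16. A matrix metalloproteinase 16 precursor (MSTRG.45005), of the membrane-bound group that cleaves collagen and activates other proteases, had 1.49, 1.8 and 2.32 scaled FPKM in T_3h, against 7.17, 4.74 and 3.20 in T_1h and 14.4, 7.05 and 5.62 in CON. It fell by 1.03 without overlap, but stood at -0.91 (unadjusted p = 0.0564 in limma) without T_1h_1. The 2 other tested entries with that name did not pass. The far more abundant MSTRG.5484 stood at 0.41, with 87.1, 137 and 143 scaled FPKM in T_3h, against 46.9, 108 and 142 in T_1h. MSTRG.29834 stood at -0.10. The 72 kDa type IV collagenases (gelatinases), MSTRG.29492 and MSTRG.46832, differed by 0.85 (unadjusted p = 0.132 in limma) and 0.78 (unadjusted p = 0.206).

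Kazal-type inhibitors of serine proteases fell. The gene MSTRG.18044 had 3.03, 5.0 and 2.01 scaled FPKM in T_3h, against 12.1, 21.6 and 6.27 in T_1h and 54.8, 28.8 and 13.9 in CON. Its groups did not overlap and the pairs differed little (-1.70, -1.91 and -1.27), for a fold change of -1.63 ± 0.36 (unadjusted p = 0.00208 in limma) that followed -1.18 in the first hour. A second Kazal-type gene (MSTRG.20916) fell by 1.03. On the list of 15 protease inhibitors, chosen after its values were seen, 1 more gene passed (20.0% in all, against 2.47% of all tested genes), a WAP four-disulfide core protein that rose by 1.02 and did not pass without T_1h_1 (0.91).

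Some enzymes that oxidise foreign or endogenous small molecules fell. Of 19 tested genes with cytochrome P450 in their description, none rose and 3 fell (15.8%, against 1.49% of all tested genes). Cytochromes P450 are haem oxidases, but the list also holds a P450 reductase (MSTRG.30449, -0.56), which is not one. The median of the list was -0.22, with pair medians of -0.48, 0.03 and -0.09, and 6 of the 19 genes lay above 0. The KEGG class of xenobiotic metabolism by cytochrome P450, with 11 tested genes, had a median of 0.14 and no gene past the thresholds. CYP2H1-like (MSTRG.8340) had 1.81, 1.03 and 2.79 scaled FPKM in T_3h, against 4.81, 7.54 and 11.4 in T_1h and 9.18, 10.6 and 19.3 in CON. CYP2C21-like (MSTRG.14212) had 1.25, 0.453 and 0.381 scaled FPKM in T_3h, against 4.19, 2.68 and 2.01 in T_1h and 11.8, 4.80 and 6.94 in CON. Both were lower in all T_3h libraries than in any T_1h library, in all 3 pairs by more than 1 on the log2 scale. They fell by 1.61 ± 0.24 (unadjusted p = 0.000197 in limma) and 1.22 ± 0.21 (unadjusted p = 0.000541), among the smallest errors of the named genes, and both passed without T_1h_1. The third, CYP2D15-like (MSTRG.20288), fell by 1.05, and all 3 had moved down in the first hour, by -0.66, -1.12 and -0.77.

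Transporters held several falls. Of 109 tested solute carriers, 6 fell (5.5%, against 1.49% of all tested genes) and none rose, 84 lay below 0, and the median of -0.31 was below 0 in all 3 pairs and under every scaling. A gene for the organic anion transporter 2A1 (SLCO2A1, MSTRG.22192), the prostaglandin carrier of mammals, had 0.953, 5.77 and 13.4 scaled FPKM in T_3h, against 16.3, 36.4 and 16.9 in T_1h and 38.9, 65.8 and 19.5 in CON. It fell by 1.98 ± 0.64 (SE, unadjusted p = 0.0162 in limma) with no overlap, and at -1.8 (unadjusted p = 0.0594) missed the threshold without T_1h_1. A second SLCO2A1 entry (MSTRG.40501) fell by 1.41 and did not pass without T_1h_1 either (-1.15). The other 4 were an excitatory amino acid transporter (MSTRG.2568, -1.27), the zinc transporter ZIP12 (MSTRG.36601, -1.22, but -0.93 and not passing without T_1h_1), monocarboxylate transporter 3 (MSTRG.29989, -1.19) and a gene of the ascorbate carrier family 23 (MSTRG.45661, -1.35). The enzyme that inactivates prostaglandins, 15-hydroxyprostaglandin dehydrogenase (15-PGDH, MSTRG.18685), had 0.747, 2.77 and 1.52 scaled FPKM in T_3h, against 14.9, 5.4 and 4.43 in T_1h and 38.1, 10.0 and 6.77 in CON. It fell by 1.69 ± 0.55 (unadjusted p = 0.0171) and differed by -1.42 (unadjusted p = 0.0721) without T_1h_1.

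Genes of vesicle traffic and the lysosome had medians below 0. Of 102 tested endocytosis genes 4 fell (3.92%, against 1.49%) and none rose, with a median of -0.32 that was below 0 in every pair (-0.24, -0.44 and -0.10). The first-hour median of these genes was -0.19. The 4 were an ARF1-like GTPase that recruits vesicle coats, 2 genes of the ESCRT partner ALIX, and endophilin-B1, which bends membranes. Without T_1h_1 the ARF1-like gene (MSTRG.17483, -1.31) stood at -0.92 and endophilin-B1 (MSTRG.39006, -1.12) at -0.96, and both missed the thresholds, while both ALIX genes passed. The ALIX gene MSTRG.36913 had 0.445, 0.692 and 0.932 scaled FPKM in T_3h, against 3.42, 2.61 and 5.92 in T_1h and 11.3, 8.03 and 4.21 in CON. It fell by 1.52 ± 0.38 (unadjusted p = 0.00447 in limma) without overlap. The receptor expression-enhancing protein 5 (REEP5, MSTRG.5935), which shapes the tubes of the endoplasmic reticulum, had 2.49, 1.42 and 45.7 scaled FPKM in T_3h, against 31.1, 31.1 and 56.8 in T_1h and 38.6, 2.90 and 55.5 in CON. It fell by 2.41, almost wholly in pairs 1 and 2.

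The lysosome pathway was the one with most genes that changed only between 1 h and 3 h: 3 of its 76 tested genes fell (3.95%, against 1.49% of all tested genes), and all 3 had moved by less than 0.5 in the first hour. Over all tested genes, 0.808% fell in that way. The first-hour moves were -0.08 for MSTRG.29892, -0.48 for MSTRG.34620 and -0.12 for MSTRG.37977, so the second lay close to the cut of 0.5. The median of the pathway was -0.17, after -0.16 in the first hour. Cathepsin L (MSTRG.29892), a cysteine protease that digests proteins in the lysosome, had 283, 89.5 and 232 scaled FPKM in T_3h, against 326, 472 and 349 in T_1h and 648, 321 and 303 in CON. Its groups did not overlap, and it fell by 1.06 ± 0.45 (unadjusted p = 0.0473 in limma), most in pair 2 and by 0.20 in pair 1, and by 1.5 without T_1h_1. Sialidase-1 (MSTRG.34620), which trims sialic acid from glycans, had 6.01, 3.76 and 9.50 scaled FPKM in T_3h, against 17.9, 10.2 and 14 in T_1h. It fell by 1.06 and no longer passed without T_1h_1 (-1.02, unadjusted p = 0.0592). The third was a hypothetical protein, MSTRG.37977, which was lower in every T_3h library than in any T_1h library. It stood at -0.91 without T_1h_1 and missed the fold threshold, so that only cathepsin L passed with and without T_1h_1. Across all alternative settings, however, cathepsin L passed in 6 of 22, against 14 of 22 for sialidase-1 and 18 of 21 for MSTRG.37977.

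**Figure D4:**
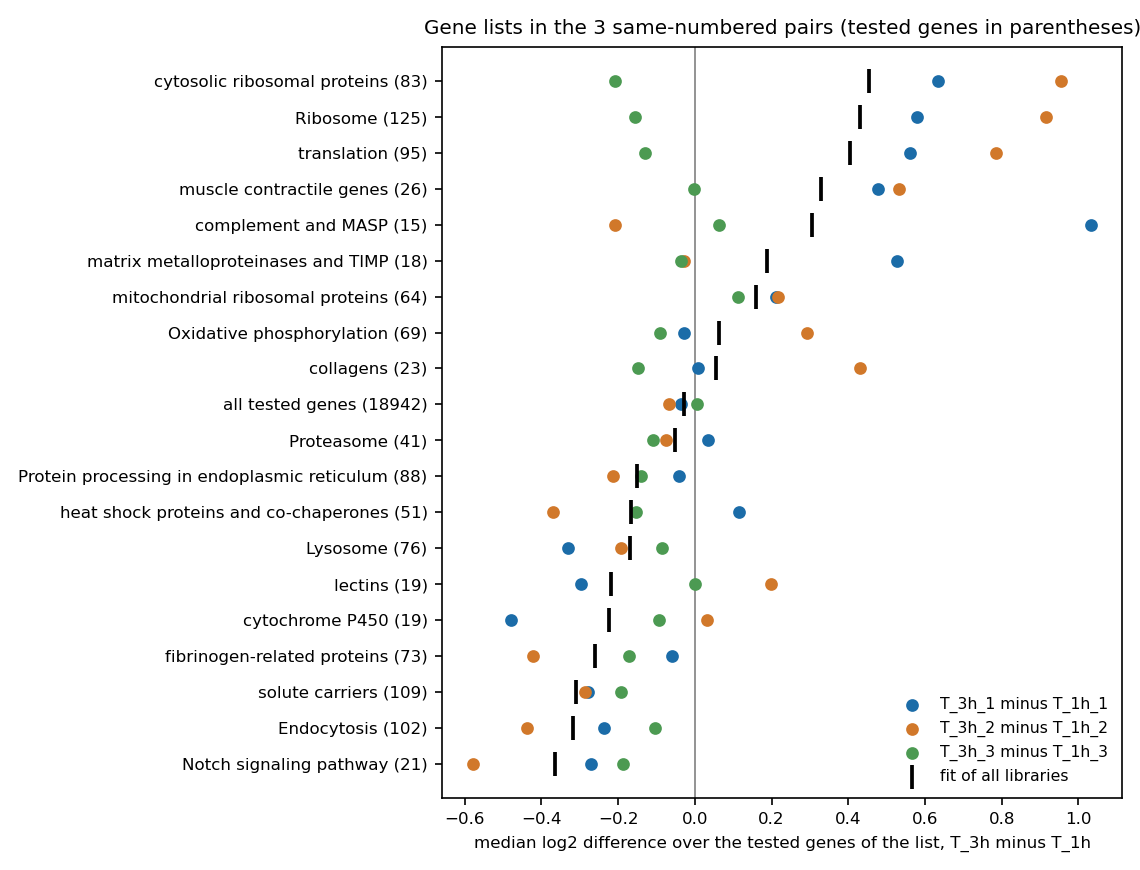
Median log2 difference of T_3h minus T_1h over the tested genes of 20 lists, with coloured points for the 3 same-numbered pairs and a black bar for the fit. Ribosomal lists stand highest through pairs 1 and 2, while solute carriers, endocytosis and Notch signaling lie below 0 in all 3 pairs; without scaling the median of all tested genes is -0.24 in place of -0.03, and those of collagens, complement, matrix metalloproteinases, mitochondrial ribosomal proteins and oxidative phosphorylation fall to 0.00 or below.

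The naming rule also took 3 genes that act on transcription, described one by one. Sal-like protein 4 (MSTRG.57), a zinc finger factor of stem cells in vertebrates, had 0, 0.0143 and 3.70 scaled FPKM in T_3h, against 3.58, 17.8 and 5.69 in T_1h and 0, 19.7 and 12.3 in CON. It fell by 2.31 ± 0.83 (SE, unadjusted p = 0.0248 in limma), but CON_1 was at 0 as well and the gene did not pass without T_1h_1 (-1.87, unadjusted p = 0.0999). A runt-related transcription factor (MSTRG.45422), of the family that directs blood and skeletal cells, had 0.751, 1.29 and 5.04 scaled FPKM in T_3h, against 3.46, 10.4 and 9.69 in T_1h and 6.41, 21.6 and 6.99 in CON. It fell by 1.5 and passed without T_1h_1 (-1.61). Pygopus 2 (MSTRG.15729), a nuclear partner of beta-catenin in Wnt signaling, had 1.26, 12.1 and 2.59 scaled FPKM in T_3h, against 13.2, 16.2 and 18.0 in T_1h and 1.81, 14.7 and 19.5 in CON. It fell by 1.82 without overlap, after 0.79 in the first hour, and missed the threshold without T_1h_1 (-1.22, unadjusted p = 0.0703). The Notch pathway, which passes signals between touching cells, had a median of -0.37, below 0 in every pair, after -0.29 in the first hour. It had 2 falls among 21 tested genes (against 1.49% of all tested genes). Neither has a characterised protein, and 1 of them, MSTRG.39827, missed the thresholds without T_1h_1 (-0.99). Of 28 MAPK pathway genes 1 fell (3.57%, against 1.49% of all tested genes), ribosomal protein S6 kinase alpha-5 (MSTRG.36147, -1.19), a kinase of histones and CREB under stress, and it did not pass without T_1h_1.

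A few genes outside these lists fell as well. The band 7 protein (MSTRG.15714), a stomatin relative that sits in lipid rafts, had 3.95, 7.08 and 3.45 scaled FPKM in T_3h, against 12.4, 26.1 and 10.4 in T_1h and 10.0, 23.1 and 5.91 in CON. It fell by 1.51 ± 0.23 in T_3h (unadjusted p = 0.000239 and adjusted p = 0.34 in limma), and the test of the difference between the steps gave an unadjusted p = 0.00174, since the first hour had moved it up by 0.39. Major vault protein (MSTRG.23395), the shell of the vault particle, had 7.88, 69.3 and 11.4 scaled FPKM in T_3h, against 45.2, 88.1 and 48.6 in T_1h and 62.7, 93.8 and 58.0 in CON. It fell by 1.57 through pairs 1 and 3 (-2.38 and -1.99), with -0.34 in pair 2. A yrdC domain gene (MSTRG.23274), named for a family of tRNA-modifying enzymes, had 0.865, 0.827 and 1.38 scaled FPKM in T_3h, against 4.55, 4.34 and 7.59 in T_1h. It fell by 1.66 to nearly its level in CON_1 and CON_2 (0.510 and 0.517), though CON_3 had 8.67.

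Genes with no characterised protein held the 3 largest rises and 2 of the 3 largest falls. MSTRG.6974 had 25.7, 215 and 65.1 scaled FPKM in T_3h, against 11.3 in T_1h_1, was listed at 0 in T_1h_2 and T_1h_3, and had 5.16, 36.3 and 24.4 in CON. MSTRG.25646 had 11.9, 11.7 and 10.5 scaled FPKM in T_3h, against 13.9 in T_1h_1 and a listing at 0 in the other 2 T_1h libraries, with 10.3, 8.22 and 9.66 in CON. These 2 were the genes with an adjusted p under 0.05 in limma without T_1h_1 (0.0107% of 18657 tested), and the second was near its level in fresh tissue. MSTRG.7151 had 43.8, 62.3 and 4.04 scaled FPKM in T_3h, was listed at 0 in T_1h_1 and T_1h_2, and had 4.67 in T_1h_3, with 12.4, 0 and 3.11 in CON; it did not pass without T_1h_1. MSTRG.9931 had 16.7, 21.8 and 0.390 scaled FPKM in T_3h, was listed at 0 in the same 2 libraries, and had 0.428 in T_1h_3, with 16.1, 11.5 and 0.944 in CON. These listings at 0 were not traced to reads here, and the fitted fold changes of such genes depend on the pseudocount. Of the falls, the undescribed MSTRG.45912 had 7.31, 15.1 and 25.8 scaled FPKM in T_3h, against 53.9, 92.9 and 282 in T_1h and 248, 163 and 148 in CON. The hypothetical protein MSTRG.6749 had 1.72, 2.06 and 9.78 in T_3h, against 40.6, 23.2 and 30.9 in T_1h and 75.5, 42.9 and 46.3 in CON. Both fell in all 3 pairs, by 2.89 and 2.83, without overlap.

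Over all annotated classes most medians lay below 0, where the median over all tested genes was -0.03. Of 97 KEGG pathways with at least 10 tested genes, 80 had a median below 0 and 44 had one below 0 in all 3 pairs, against 5 above 0 in all 3. Of 125 GO terms with at least 20 tested genes, 106 had a median below 0, 77 of them in all pairs, against 4 above 0 in all pairs. The highest KEGG medians were those of ribosome (0.43), herpes simplex infection (0.16), salivary secretion (0.16) and metabolism of xenobiotics by cytochrome P450 (0.14), and the highest GO medians those of the cytosolic large ribosomal subunit (0.47), structural constituent of ribosome (0.43), ribosomal large subunit assembly (0.42) and the cytosolic small subunit (0.42). The lowest were dorso-ventral axis formation (-0.56), *Salmonella* infection (-0.46), PPAR signaling (-0.45) and inositol phosphate metabolism (-0.37) in KEGG, and regulation of cell proliferation (-0.41), actin binding (-0.38), transport from the endoplasmic reticulum to the Golgi (-0.38) and regulation of cell shape (-0.36) in GO. In the first hour, in the same order, these medians were -0.48, -0.32, -0.21 and -0.16 in KEGG, and 0.02, -0.29, -0.24 and -0.07 in GO. Several of these classes had thus already moved down before the second step. Calls were sparse within the classes: 71 of the 97 pathways and 80 of the 125 terms held no gene past the thresholds. A gene that changed only between 1 h and 3 h was present in 18 pathways and 24 terms, and in 13 and 14 of these no gene of another class had passed. Besides the lysosome with 3, endocytosis held 2 such genes and no other pathway more than 1, and among GO terms the integral component of membrane and cytoplasm held 3 each. Of the step itself, 53 of the 240 genes (22.1%) have a described protein, against 26.7% of all tested genes.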

How the data were processed

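The members and gene lists were chosen with earlier results of these data known, and the words that define the lists were set after their values were seen. Per the labels and methods, the authors removed adaptors, primers and bases of quality under 20, aligned reads to the *A. japonicus* genome with HISAT, assembled them with StringTie, and deposited FPKM values of 53665 genes with descriptions, GO and KEGG terms. The submitters' processing notes list HISAT2 2.0, StringTie 1.3.0, Bowtie 0.12.2 and the build mm8, with no roles. Reads per gene are unknown, so precision rests on 3 libraries per group, and p-values measure only the spread between them. None of the gene IDs matched the RefSeq table (0 matches), so no sequence or position is printed.

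FPKM was divided by median-ratio factors (7156 genes with at least 1 FPKM in all 9 libraries) and fitted as log2(FPKM + 1) with limma 3.58.1 in R 4.3.3 (empirical Bayes with trend, group plus replicate number, 9 libraries, two-sided, 4 residual and 3.55 prior degrees of freedom). Fold changes are on that scale, which understates those of low genes. An exact permutation test of 3 libraries against 3 could not reach 0.05. Genes needed a mean deposited FPKM of at least 1 over T_1h and T_3h. Same-numbered T_3h and T_1h libraries deviated together from their group means (r = 0.761, 0.745 and 0.746 across genes, against -0.40 to -0.35 for different numbers), so the numbers were taken as pairs. The genes named are the 12 largest described rises and falls with 1 sign in all pairs, the 3 largest of any kind, the 6 largest each way among genes that changed only after 1 h, those with an adjusted p under 0.05 without T_1h_1, and up to 2 per list; others are values picked after they were seen. The steps were tested on simulated data. Tables were made with Python 3.11.15, numpy 2.4.6 and pandas 2.3.3, and figures with matplotlib 3.10.9. In all, 18 other settings were tried, and 4 more were added after seeing the data.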

Additional observations from a re-analysis of the deposited data

How the results depend on the processing

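The 63 named genes kept their direction in all 1364 values from the 22 alternatives, passing the thresholds in 975 and missing them in 389. These genes were picked for large changes in these same libraries. The kept direction was thus largely fixed in advance and is no separate result. Of the 63 genes, 2 passed in every alternative, 37 with no replicate block and 34 without T_1h_1. Genes past the thresholds numbered 217 with no replicate block, 733 without scaling, 1048 with a pseudocount of 0.1, 229 with a minimum mean of 5 FPKM and 93 in the Ballgown-type test, against 467, and lay between 450 and 474 with upper-quartile scaling, with no minimum, with no trend and in the 6 libraries alone. The Ballgown-type test also left out T_1h_1, CON and the replicate block, so its count differs from 467 by more than the method. Genes changed only between 1 h and 3 h numbered 106 with no replicate block, 509 with the pseudocount of 0.1 and 113 with the minimum of 5 FPKM, against 240; without CON (the Ballgown-type test and the fits of 6 and 5 libraries) they could not be told. Leaving out 1 library in turn gave 377 to 1272 genes past the thresholds, 151 to 729 changed only in the second step, and 0 to 2 with an adjusted p under 0.05. Leaving out 1 replicate number in all groups, added after seeing the data, gave 393 to 1091 and 204 to 535, highest without number 3. The 5 libraries of T_1h and T_3h without T_1h_1, also added, gave 377, of which 84 rose and 293 fell. The causes were not tested. With 3 libraries per group and no counts, low genes and genes listed at 0 are the least certain.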

Other observations

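The following groups were picked after their values were seen and carry no test. Beside the SLCO2A1 and 15-PGDH genes of the report, a second 15-PGDH gene (MSTRG.35792) fell by 1.09 (-1.05 and not passing without T_1h_1), so that 4 of the 10 tested genes of these 2 families fell (against 1.49% of all tested genes) and none rose; yet 2 other 15-PGDH genes stood higher in T_3h, with MSTRG.2341 at 0.52 and MSTRG.35789 at 0.67, below the fold threshold. Of 31 tested conjugating and reducing enzymes, 5 fell (16.1%, against 1.49% of all tested genes) and none rose, with a median of -0.39. Sulfotransferase MSTRG.16646, which adds sulfate to small molecules, had 2.82, 5.10 and 4.39 scaled FPKM in T_3h, against 6.88, 11.7 and 12.3 in T_1h. NAD(P)H:quinone oxidoreductase (MSTRG.24819) had 2.75, 1.44 and 2.55 scaled FPKM in T_3h, against 6.09, 4.81 and 7.11 in T_1h. A flavin monooxygenase (dimethylaniline monooxygenase, MSTRG.43568) had 4.88, 3.97 and 4.38 scaled FPKM in T_3h, against 12.6, 8.32 and 14.9 in T_1h. These 3 were lower in every T_3h library than in any T_1h library and had moved by 0.07, -0.13 and 0.19 in the first hour. A sigma class glutathione S-transferase (MSTRG.47170, -1.16 after 0.40 in the first hour) was the fourth placed among genes changed only in the second step.

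Both runt-related genes of the table fell in the second step with a first hour within the cut of 0.5, though MSTRG.45422 lay close to it (-0.43, against -0.08 for MSTRG.32867). The gene MSTRG.32867 had 1.68, 3.37 and 6.84 scaled FPKM in T_3h, against 10.0, 11.3 and 13.5 in T_1h, with no overlap, and missed the threshold without T_1h_1 (-1.20). All 4 tested genes of the bactericidal permeability-increasing protein, which binds lipopolysaccharide in vertebrates, lay below 0 in all 3 pairs, and 2 of them passed, against 1.49% of all tested genes that fell (MSTRG.24478 at -1.22 and MSTRG.9323 at -1.04).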
